A study of Homo sapiens with 3 samples.

Results

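Read-through genes are annotation entries for transcripts that run through the end of one gene into the next gene downstream and join exons of both. The table of H128 cells, an established human small cell lung cancer (SCLC) line, held 56 of them among 17448 genes. They were chosen by name alone: a symbol with a hyphen counted where the text before and the text after the hyphen were each the symbol of a gene in the same table, as in RPS10-NUDT3. Each therefore came with 2 parents, and the 112 parents were all distinct. All 56 read-through genes overlapped both of their parents in the coordinates of the table (GRCh38). They lay on 22 chromosomes, and the gap between the parents had a median of 4789.5 bp, with 15 pairs of parents that touched or overlapped and a largest gap of 108016 bp.

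RNA was taken 48 h after transfection, and 3 libraries were made: siCont, from cells given a control siRNA, and siERRG2 and siERRG3, from cells given siRNA against ESRRG, the gene of the nuclear receptor ERRγ. The sources used here do not settle which of the study's 2 ESRRG siRNA sequences went into which library. All 3 libraries came from the same unmodified cell line. With 1 library per condition there is no replicate, so no difference below has a test or a p-value, and intervals cover counting error only.

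In normal transcription the nascent RNA is cut and polyadenylated at the end of a gene, and the polymerase is then released from the DNA. When it instead continues into a neighbour on the same strand, splicing can skip the last exon of the upstream gene and join the exon before it to an exon of the downstream gene. Some of the resulting RNAs keep an open reading frame through both parts, while others carry an early stop codon and can be degraded by nonsense-mediated decay. Such RNAs share most of their sequence with the parents, and short reads tell them apart where a read crosses the joining of the 2 genes or falls on sequence that the parents lack.

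The joins of some of the read-through genes named below are shown because a read that crosses such letters carries exons of both parents. GENCODE annotation on GRCh37 held 46 of the 56 genes, and for 43 of them 1 intron was found that leads from an exon of the first parent to an exon of the second. Each line gives the last 15 bases of the upstream exon in lower case and the first 15 bases of the downstream exon in capitals, 5′ to 3′ on the strand of the transcript.
RPS10-NUDT3: accgaattccagtttGTGCTACTCGTGAGC
POC1B-GALNT4: acggcaagcaacttgGAGCCGGCCGTGCCA
HSPE1-MOB4: ggttctaaaggaaagGATTTCTATAATTGG
ABHD14A-ACY1: cccttgaccttccagGAGCTGCTGTGGCTT
TMED7-TICAM2: aagagtggcctattgGCACAGTGTGGATAC
BUB1B-PAK6: aaagccttatggaagGGAGTGCCGCTTCCT
FAM47E-STBD1: gagctgcaggaacagAGCATCTTCAAGAAA
FXYD6-FXYD2: gccatcaggtggaagGCGGCAGCCCCAAGG
ARPC4-TTLL3: aggaagcctgtggagCAGAAGAAGATCTTT
RPL36A-HNRNPH2: gataagaagagaaagCTACACCAAAATTGC

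In RPS10-NUDT3 the join led from exon 5, at chr6:34386146-34386201 on the minus strand, to exon 6 of 9, at chr6:34309639-34309749, over an intron of 76396 bp. In POC1B-GALNT4 it led from exon 2, at chr12:89918897-89918981 on the minus strand, to exon 3 of 3, at chr12:89913185-89918217, over an intron of only 679 bp. Over the 43 joins the intron had a median length of 18755 bp, and 39 of the joins had coding sequence on both sides. ZNF660-ZNF197 had no entry in that annotation, so its join is not shown.

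A stretch of 50 bases, the read length given in the study's methods, has 49 positions from which it crosses a join. In the 46 annotated genes, a median of 180.5 windows of 50 bases, or 8.71% of the windows of the gene, occurred in no other gene. RPS10-NUDT3 had 101 such windows of 5030, POC1B-GALNT4 310 of 5497, and ABHD14A-ACY1 761 of 5549. The fewest were 43, in NME1-NME2 (of 1263) and in EEF1AKMT4-ECE2 (of 3396), and HSPE1-MOB4 had 46 of 841. The share ran from 0.996% to 41.8%, highest in JMJD7-PLA2G4B with 3480 windows, and it was 30.8% in BUB1B-PAK6 and 28.5% in CENPS-CORT. Single reads over the other windows fit a parent or another gene as well. The windows follow the single reads of the methods, while the labels of the series give paired-end reads. Pairs were not examined.

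The counts of the read-through genes were almost never whole numbers. The authors' counts are estimates that need not be whole numbers. Among genes with a count above 0, the count was not whole for 100% of the read-through genes in siCont, 100% in siERRG2 and 97.9% in siERRG3. For the parents it was not whole for 84.4%, 86.0% and 84.4%, and for all other genes for 47.9%, 47.5% and 48.0%. What gave these fractions was not tested. How reads were divided among overlapping genes was not examined, and the counting interval of a read-through gene leaves out that uncertainty.

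Read-through genes also share the start of their first parent more often than not. A 5′ window was at hand in RefSeq (GRCh38.p14) for 48 of them, and 40 could be set against the window of the first parent. Of these, 32 started within 100 bp of the first parent and 28 had exactly the same window, while 6 started over 1000 bp away. In 42 pairs both parents had a window on the same strand, and in all 42 the first name was the upstream gene. Pairs on opposite strands were not told apart from pairs without windows, so 42 is not a share of all pairs. The letters AAGGTCA, the core of the estrogen-related receptor element, were found on either strand in 3 of 48 windows (6.25%), those of COMMD3-BMI1, MINOS1-NBL1 and TNFAIP8L2-SCNM1, against 3.97% of 27305 windows of all genes. The longer form TCAAGGTCA, which contains the shorter one, was in 0 of 48 windows and in 0.359% of all. These matches describe letters in windows of 250 bases before and 50 bases after the start, and not bound sites.

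The read-through genes were low as a class. Together they took 10940 counts of 19861937 in siCont, 11244 of 19900580 in siERRG2 and 10943 of 20016780 in siERRG3, or 0.0551%, 0.0565% and 0.0547% of each total. The parents took 0.749%, 0.739% and 0.781%. Per length, on the deposited expression value that behaves as FPKM, the median read-through gene stood at 1.02, 0.87 and 1.05 in the same order. Parents had medians of 6.83, 6.64 and 6.23. Counts of 0 were given to 8, 8 and 9 read-through genes, and 21, 18 and 21 reached 100 counts.

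Within the loci, the read-through gene usually stood below its parents. A locus here means a read-through gene with both parents, and 55 loci had at least 50 counts in every library. On the FPKM scale the read-through gene was below both parents in 31, 36 and 30 loci of siCont, siERRG2 and siERRG3, and above both in 1, 2 and 2. Its share of the counts of the locus had a median of 3.48%, 3.02% and 4.24%. The share was under 5% in 35, 33 and 31 loci and over 25% in 10, 7 and 11. The read-through gene was a minor entry in most loci and a major one in a few.

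The read-through gene with the highest level was RPL36A-HNRNPH2. It joins exons from the gene of a large ribosomal subunit protein and from that of an RNA-binding protein of the hnRNP family. Its FPKM was 51.8 in siCont, 65.5 in siERRG2 and 50.9 in siERRG3, from 2746, 3477 and 2720 counts. The level lay far below that of RPL36A, at 1063, 1045 and 1006, and above that of HNRNPH2, at 5.63, 7.10 and 6.95. Of the 3 libraries siERRG2 was the high one, with a log2 fold change of 0.32 and a ratio interval of 1.19 to 1.32, and siERRG3 was close to siCont (log2 fold change of -0.04).

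NME1-NME2 joins a pair of nucleoside diphosphate kinase genes that are close paralogs, which makes the division of reads at this locus uncertain. It had 818, 719 and 654 counts and an FPKM of 39.0, 34.2 and 30.9. Both ESRRG siRNA libraries were below siCont, with log2 fold changes of -0.20 and -0.35. NME1 itself had an FPKM of 533, 444 and 570, which is not the same order of libraries.

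COMMD3-BMI1 carries the Polycomb protein gene BMI1 as its second part. It had 1081, 1151 and 1208 counts, 26.2%, 28.3% and 31.0% of its locus, and log2 fold changes of 0.07 and 0.14. RPL17-C18orf32, behind another ribosomal protein gene, had 584, 659 and 551 counts and log2 fold changes of 0.16 and -0.11. RBM14-RBM4, which joins a pair of RNA-binding protein genes, had 191, 178 and 281 counts, and siERRG3 was the high library with a log2 fold change of 0.53. MINOS1-NBL1, from a subunit of the mitochondrial cristae organizing complex and a secreted BMP antagonist, had 189, 205 and 257 counts, while its share of the locus stayed at 8.22%, 8.28% and 8.40%. None of the genes named so far with their counts was past 1.5-fold in either siRNA library.

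**Figure D1:**
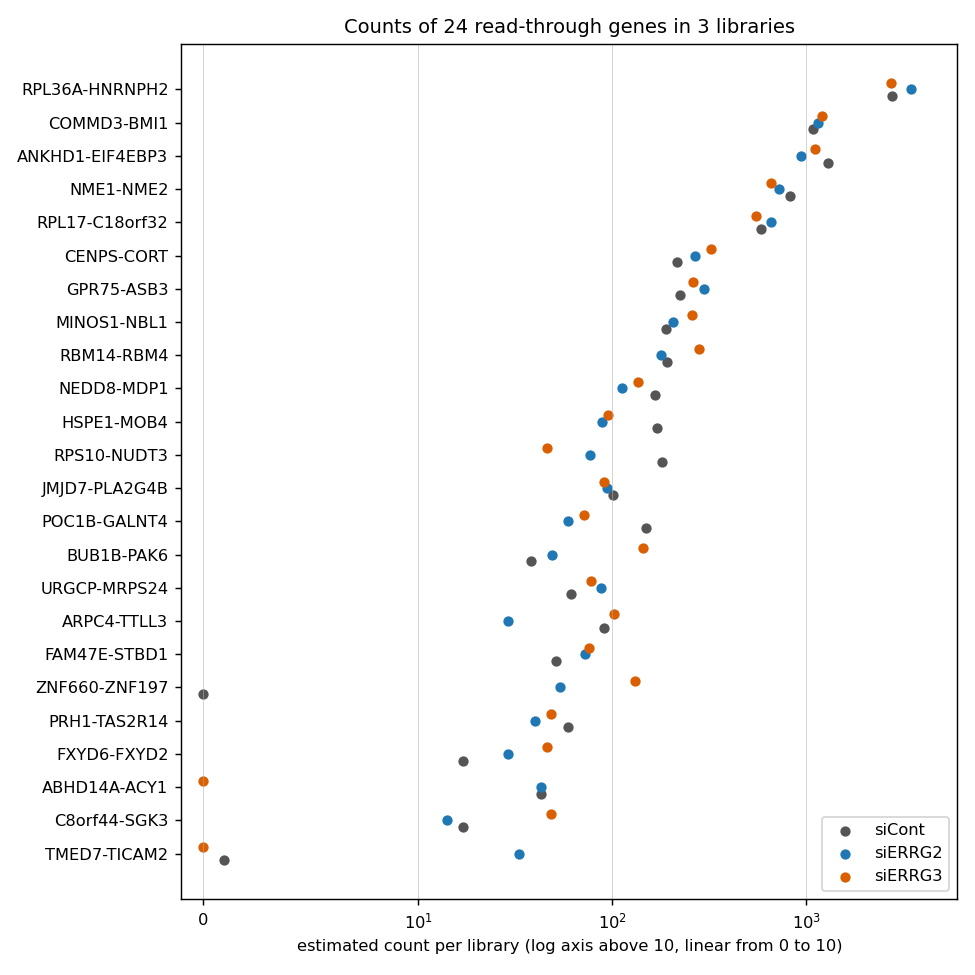
Estimated counts of 24 read-through genes in the 3 libraries, 1 point per library, on an axis that is logarithmic above 10 and linear from 0 to 10. RPS10-NUDT3 (180, 77 and 46 counts) and ZNF660-ZNF197 (0, 54 and 131) spread widely, while the points of COMMD3-BMI1 (1081, 1151 and 1208) lie close together.

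Libraries were compared for a gene where it had at least 10 counts in at least 1 library, which 47 of the 56 read-through genes, 101 of the 112 parents and 14031 genes in all passed. Of the 9 that did not pass, 4 had 3 counts or fewer in every library. The call of lower or higher was made when the scaled count was 1.2-fold or more from siCont, the fold used in the study. In siERRG2, 17 of 47 read-through genes were lower (19.2% of all genes were) and 16 were higher (16.4% of all genes). In siERRG3, 12 were lower (25.1% of all genes) and 15 were higher (23.2% of all genes). In either direction this makes 33 of 47 in siERRG2, where 35.5% of all genes were called, and 27 of 47 in siERRG3, where 48.3% were. The median log2 fold change was 0 in both comparisons, over members of which some were at 0 counts in both libraries. Over members with more than 3 counts in both libraries it was -0.02 for 39 genes in siERRG2 and 0.06 for 38 genes in siERRG3, so the class as a whole moved in neither direction.

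By the counting interval, fewer stood apart. In siERRG2 the 95% interval of the ratio of counts was wholly below 1 for 15 and wholly above 1 for 11 of the 47, where 22.4% and 21.7% of all genes did so. In siERRG3 it lay below 1 for 9 and above 1 for 12, against 28.5% and 27.1% of all genes. Most read-through genes have few counts and hence wide intervals, so these shares cannot be set against all genes without regard to the count.

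Low counts alone give large folds, so the calls were also read by count level. A mean of 50 counts or more over the 3 libraries was reached by 29 read-through genes. Of these, 20 of 29 read-through genes were past 1.2-fold in siERRG2 (28.2% of all such genes) and 15 of 29 in siERRG3 (43.7%). Past 1.5-fold there were 7 of 29 in siERRG2 (5.6%) and 6 of 29 in siERRG3 (13.4%), and past 2-fold 6 of 29 (1.02%) and 4 of 29 (2.78%). These background shares are not matched on count, since 14 of the 29 read-through genes lay under 200 counts, against 1813 of 11369 of all such genes. The range from 50 to 200 counts was therefore added after the values were seen. In it, 12 of 14 were past 1.2-fold in siERRG2 (49.3% of all genes in this range) and 10 of 14 in siERRG3 (58.1%). Past 1.5-fold there were 7 of 14 (15.1%) and 6 of 14 (24.4%). Past 2-fold there were 6 of 14 in siERRG2 (3.14%), of which 5 were lower and 1 was higher, and 4 of 14 in siERRG3 (6.78%), with 2 in each direction. The 2 higher in siERRG3, ZNF660-ZNF197 and BUB1B-PAK6, reach a mean of 50 counts only through siERRG3, the library where they are high, so the filter admitted them through the difference itself. Of the 15 whose mean reached 200 counts, 8 were past 1.2-fold in siERRG2 (24.2% of all such genes) and 5 in siERRG3 (40.9%), and 0 were past 1.5-fold in either library (3.8% and 11.3%). Past 2-fold there were likewise 0 of 15, against 0.617% and 2.02% of all such genes.

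**Figure D2:**
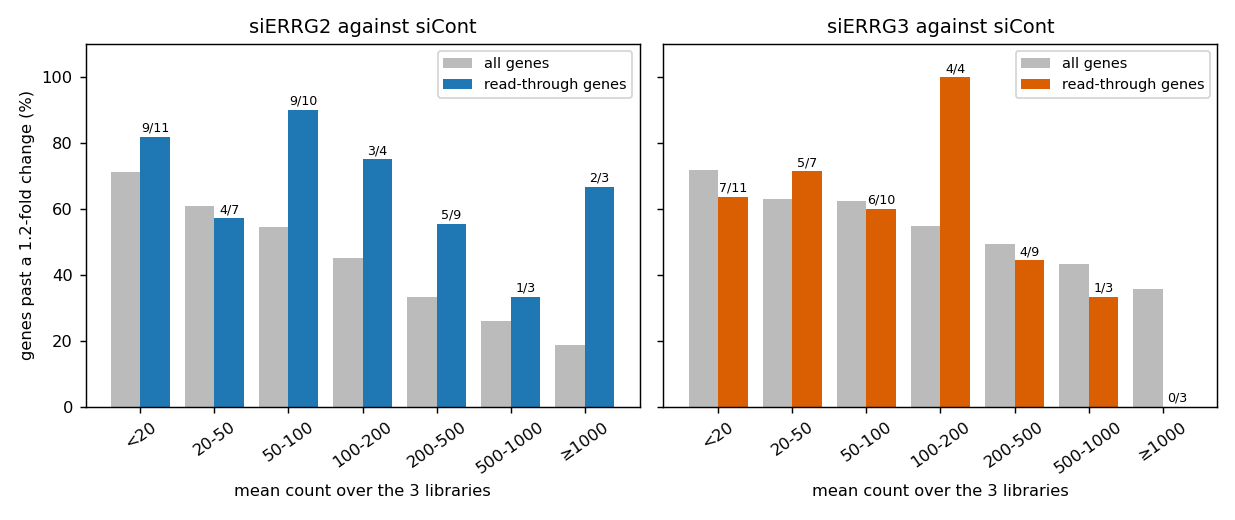
Share of genes past a 1.2-fold change in either direction against siCont, in percent, by mean count over the 3 libraries. Grey bars stand for all genes, coloured bars for read-through genes with their number above; in siERRG2 the coloured bar is above the grey one in every bin except that of 20 to 50 counts, and in siERRG3 it is above it in the bins of 20 to 50 and 100 to 200.

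By bin of the mean count, 9 of 11 read-through genes under 20 counts were past 1.2-fold in siERRG2 and 7 of 11 in siERRG3, where 71.1% and 71.8% of all genes were. From 20 to 50 counts there were 4 of 7 and 5 of 7 (61% and 63.1% of all genes), so at the lowest counts the read-through genes lay near the background. From 50 to 100 counts there were 9 of 10 and 6 of 10 (54.6% and 62.4%), and from 100 to 200 there were 3 of 4 and 4 of 4 (45.1% and 54.7%). From 200 to 500 counts there were 5 of 9 and 4 of 9 (33.4% and 49.3%), from 500 to 1000 there were 1 of 3 and 1 of 3 (26.1% and 43.2%), and above that 2 of 3 and 0 of 3 (18.7% and 35.6%). In siERRG3 the read-through genes were thus on both sides of the background.

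The 6 genes at 50 counts or more that were past 2-fold in siERRG2 were ARPC4-TTLL3, POC1B-GALNT4, RPS10-NUDT3, RNF103-CHMP3, PMF1-BGLAP and ZNF660-ZNF197. The 4 in siERRG3 were RPS10-NUDT3, POC1B-GALNT4, BUB1B-PAK6 and ZNF660-ZNF197. RNF103-CHMP3 and PMF1-BGLAP are named after their values were seen. RNF103-CHMP3 had 89, 38 and 108 counts, and PMF1-BGLAP had 85, 41 and 85, so in both of them siERRG2 was the low library and siERRG3 was not below siCont by the 1.2-fold call.

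Taken against the same siCont library, 7 of 47 read-through genes were lower in both ESRRG siRNA libraries (7.88% of all genes were) and 6 were higher in both (7.26%). Another 4 were past the fold in opposite directions (6.05% of all genes). Because siCont is common to both comparisons, a count that stands high or low in siCont alone enters both. Below, the 3 libraries are given in the order siCont, siERRG2 and siERRG3.

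RPS10-NUDT3 lay at chr6:34249209-34426125 (gene ID 100529239). It runs from RPS10, the gene of a small ribosomal subunit protein, into NUDT3, that of a hydrolase of diphosphoinositol polyphosphates and RNA caps. Its counts were 180, 77 and 46, with siCont the high library and siERRG3 the low one. The log2 fold change was -1.22 in siERRG2, with a ratio interval of 0.320 to 0.555, and -1.95 in siERRG3, with an interval of 0.178 to 0.349. The parents did not share this. RPS10 had 15819, 15992 and 17967 counts (log2 fold changes 0.00 and 0.16), and NUDT3 had 923, 855 and 1277 (log2 fold changes -0.13 and 0.44). The read-through share of the locus was 1.06% (0.915% to 1.23%), 0.455% (0.359% to 0.568%) and 0.238% (0.175% to 0.318%). The part that the division of reads between RPS10 and the read-through gene has in this difference was not tested.

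POC1B-GALNT4 lay at chr12:89519412-89526262 (gene ID 100528030), and joins a centriole protein gene to that of a glycosyltransferase that starts mucin-type O-glycans. Its counts were 149, 59 and 71, again highest in siCont. The log2 fold change was -1.32 in siERRG2 (ratio interval 0.285 to 0.533) and -1.07 in siERRG3 (0.348 to 0.626). Its share of the locus was 38.1% (33.3% to 43.1%), 15.1% (11.7% to 19.0%) and 20.3% (16.2% to 24.9%), while the locus sum was 391, 392 and 350. POC1B had 242, 254 and 279 counts. GALNT4, whose exon the read-through transcript contains, was given 0, 79 and 0 counts, so it was at least 26.0-fold higher in siERRG2 than in siCont, with 0 taken as 3 counts. In siERRG2 the counts of GALNT4 and of the read-through gene summed to nearly the siCont count of the read-through gene alone. This did not hold in siERRG3, where GALNT4 had 0 counts and the read-through gene 71, against 149 in siCont. The part of the division of reads in these differences was not tested.

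HSPE1-MOB4 joins the gene of the mitochondrial co-chaperonin HSP10 to that of MOB4, a subunit of phosphatase complexes. It had 170, 88 and 95 counts, and the siRNA libraries lay close together below siCont. The log2 fold changes were -0.95 (ratio interval 0.391 to 0.666) and -0.85 (0.423 to 0.710). HSPE1 was not lower, with 4141, 4755 and 4710 counts, and MOB4 had 1090, 1207 and 673, lower in siERRG3 only. The read-through share was 3.15%, 1.45% and 1.73%.

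NEDD8-MDP1, from the ubiquitin-like modifier of cullins and a magnesium-dependent phosphatase, had 166, 112 and 136 counts. Its log2 fold changes were -0.58 and -0.31, and the ratio interval lay below 1 in siERRG2 (0.520 to 0.853) but held 1 in siERRG3 (0.637 to 1.02). NEDD8 had 2296, 2382 and 2512 counts and MDP1 79, 93 and 87, both within 1.2-fold of siCont in each siRNA library. The ratio interval of MDP1 held 1 in both libraries, and that of NEDD8 held 1 in siERRG2 and lay above 1 in siERRG3. PRH1-TAS2R14, a salivary protein gene joined to a bitter taste receptor gene, had 59, 40 and 48 counts. The ratio intervals held 1 (0.437 to 1.02 and 0.535 to 1.19), so its difference was not detectable at this depth. It took 71.1%, 59.7% and 58.5% of a locus of only 83, 67 and 82 counts. The other 2 genes lower in both, named after their values were seen, were at 0 in both siRNA libraries, EEF1AKMT4-ECE2 with 12, 0 and 0 counts and TGIF2-RAB5IF with 19, 0 and 0.

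ZNF660-ZNF197 (chr3:44555203-44669364, gene ID 110354863) joins a pair of zinc finger protein genes. It had 0, 54 and 131 counts, all libraries apart. With 0 taken as 3 counts it was at least 17.8-fold higher in siERRG2 and at least 42.9-fold higher in siERRG3 than in siCont, and siERRG3 exceeded siERRG2 by a ratio of 2.41 (1.74 to 3.38). The locus sum was 534, 525 and 714 counts, near siCont in siERRG2 (log2 fold change -0.04) and past 1.2-fold in siERRG3 (0.39). In siCont the share was 0 of 534 counts, which allows a share of up to 0.562%, against 10.3% (7.82% to 13.2%) in siERRG2 and 18.3% (15.6% to 21.4%) in siERRG3. ZNF660 had 59, 63 and 99 counts and ZNF197 475, 408 and 484. Its RefSeq start window is the same sequence as that of ZNF660.

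BUB1B-PAK6 joins exons from the gene of the mitotic checkpoint kinase BUBR1 and from that of a p21-activated kinase. GENCODE held 1 transcript of it, labelled as one of nonsense-mediated decay. In RefSeq it starts 56359 bp from the start of BUB1B. Its counts were 38, 49 and 143, so siERRG3 stood apart from the other two. The log2 fold change was 0.33 in siERRG2, with a ratio interval that held 1, and 1.83 in siERRG3 (interval 2.57 to 5.44), and siERRG3 to siERRG2 had a ratio of 2.90 (2.09 to 4.10). The upstream parent BUB1B went the other way, with 2880, 2606 and 2329 counts, while the downstream parent PAK6 had 29, 46 and 71. Its share of the locus was 1.29%, 1.81% and 5.62%.

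FXYD6-FXYD2 joins a pair of genes of small regulators of the sodium pump. It had 17, 29 and 46 counts, and its ratio interval held 1 in siERRG2 (0.896 to 3.27) and lay above 1 in siERRG3, where the log2 fold change was 1.31. FXYD6 had 6063, 5402 and 4666 counts and FXYD2 had 32, 9 and 0, which is at least 10.8-fold lower in siERRG3 than in siCont. Both parents therefore ran in the order opposite to the read-through gene.

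FAM47E-STBD1 ends in the gene of a glycogen-binding protein. Its counts were 51, 72 and 76, and the log2 fold changes were 0.47 (ratio interval 0.962 to 2.04) and 0.53 (1.01 to 2.13). STBD1, in contrast, had 257, 150 and 99 counts and log2 fold changes of -0.79 and -1.38. The share of the read-through gene was 16.1% (12.3% to 20.7%), 30.6% (24.8% to 37.0%) and 40.9% (33.7% to 48.3%), the intervals of both siRNA libraries apart from that of siCont.

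CENPS-CORT starts in a gene of the centromere and of the Fanconi anemia pathway and ends in that of the neuropeptide cortistatin. It had 214, 268 and 322 counts and log2 fold changes of 0.31 (ratio interval 1.03 to 1.49) and 0.56 (1.24 to 1.77). Here the locus moved with it in siERRG3: CENPS had 337, 316 and 500 counts, and the share was 37.5%, 43.9% and 37.9%. URGCP-MRPS24, which ends in a mitochondrial ribosomal protein gene, had 61, 87 and 78 counts and a share of 1.94%, 2.88% and 2.41%. Its log2 fold changes were 0.48 (ratio interval 1.005 to 1.99) and 0.32 (0.888 to 1.79, which holds 1).

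At the loci of ANKHD1-EIF4EBP3 and GPR75-ASB3 the sum was within 1.2-fold of siCont, while the share of the read-through gene differed. ANKHD1-EIF4EBP3 joins an ankyrin repeat protein gene to that of a repressor of cap-dependent translation. It had 1296, 937 and 1112 counts, log2 fold changes of -0.48 (ratio interval 0.656 to 0.778) and -0.24 (0.778 to 0.915), and a share of 37.9%, 25.2% and 30.1%. ANKHD1 stood the other way, with 2024, 2700 and 2415 counts, and the locus sum was 3420, 3725 and 3695. GPR75-ASB3, from an orphan receptor gene and that of a ubiquitin ligase adaptor, had 223, 296 and 260 counts and a share of 36.1%, 53.8% and 46.6%. ASB3 had 377, 246 and 281 counts, below siCont in both siRNA libraries, and the locus sum was 618, 550 and 558. JMJD7-PLA2G4B, a hydroxylase gene joined to a phospholipase gene, had 101, 94 and 91 counts, with ratio intervals that held 1. Its share of 48.3%, 54.0% and 63.2% had overlapping intervals in every library, while JMJD7 had 105, 80 and 53 counts.

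Present in one library and at or near 0 in another is a rare pattern in the table. Of genes with at least 30 counts in 1 library, 12 of 12354 (0.0971%) had 3 counts or fewer in another. Of the 12, 3 were read-through genes (of 37 with at least 30 counts) and 2 were parents (of 93), GALNT4 and FXYD2, given above. Besides ZNF660-ZNF197, the read-through genes were ABHD14A-ACY1 and TMED7-TICAM2. These numbers are not matched on count, since the median count in siCont was 47 for read-through genes and 298 for all genes. The minimum of 30 counts also admits a gene of this pattern only through the libraries where it is high. ABHD14A-ACY1 (gene ID 100526760), which ends in the gene of aminoacylase 1, had 43, 43 and 0 counts, at least 14.6-fold lower in siERRG3 than in siCont. In siERRG3 its share was 0 of 805 counts, which allows up to 0.373%, against 4.35% and 3.80% in the other two. ABHD14A had 570, 709 and 394 counts and ACY1 376, 381 and 411, so both parents were well counted there. TMED7-TICAM2 joins a cargo receptor gene of the early secretory pathway to that of an adaptor of Toll-like receptor signaling. It had 1, 33 and 0 counts, and siERRG2 exceeded siERRG3 at least 11.1-fold. TMED7 was level, with 1223, 1201 and 1248 counts, and TICAM2 had 129, 69 and 91, lowest where the read-through gene was highest. CORO7-PAM16, named after its values were seen, had 0, 25 and 0.

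Other genes differed most between the siRNA libraries themselves, a comparison that does not use siCont. ARPC4-TTLL3, from a subunit of the actin-nucleating Arp2/3 complex and a tubulin glycylase, had 90, 29 and 102 counts, with a siERRG3 to siERRG2 ratio of 3.50 (2.30 to 5.48). Its first parent ARPC4 had 1818, 2083 and 2253 counts, so the low siERRG2 count had no counterpart there. C8orf44-SGK3, which ends in the gene of a kinase of the SGK family, had 17, 14 and 48 counts and a ratio of 3.41 (1.85 to 6.70). SGK3 had 179, 163 and 109 counts, lowest where the read-through gene was highest, and the share of the read-through gene was 7.08%, 6.33% and 23.6%.

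Across all kept members, the size of the difference was set against that of the locus. The median absolute log2 fold change of the 47 read-through genes was 0.43 in siERRG2 and 0.31 in siERRG3. For the sum of each locus it was 0.14 and 0.21, for the parents 0.18 and 0.37, and for all genes 0.18 and 0.25. These medians are not matched on count. In siCont the median count was 47 for the read-through genes, 312.5 for the parents and 298 for all genes. From 20 to 50 counts the median of the read-through genes was 0.28 and 0.31, and that of all genes 0.35 and 0.40. From 50 to 200 counts it was 0.76 and 0.43 for the read-through genes, and 0.26 and 0.33 for all genes. The sum of the locus was past 1.2-fold in 8 of the 47 in siERRG2 and 18 of the 47 in siERRG3 (35.5% and 48.3% of all genes were). These percentages are not matched on count either, because a locus adds the counts of a read-through gene and both parents. In the bin from 500 to 1000 counts, 26.1% and 43.2% of all genes were past 1.2-fold, and above it 18.7% and 35.6%. Loci were not sorted by count, so whether they differed less often than genes of like count was not tested. Of the 33 read-through genes called in siERRG2, the summed counts of the parents were within 1.2-fold in 25, past it in the same direction in 2, and past it in the other direction in 6. Of the 27 called in siERRG3, these numbers were 13, 6 and 8. Of single parents, 42 of 101 were past 1.2-fold in siERRG2 and 60 of 101 in siERRG3. Direction differed between the libraries: the read-through gene had the sign opposite to the sum of its parents in 33 genes and the same sign in 12 in siERRG2, and 23 and 23 in siERRG3. Counts that are divided among overlapping genes are not independent, and the part of that division in these signs was not tested.

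**Figure D3:**
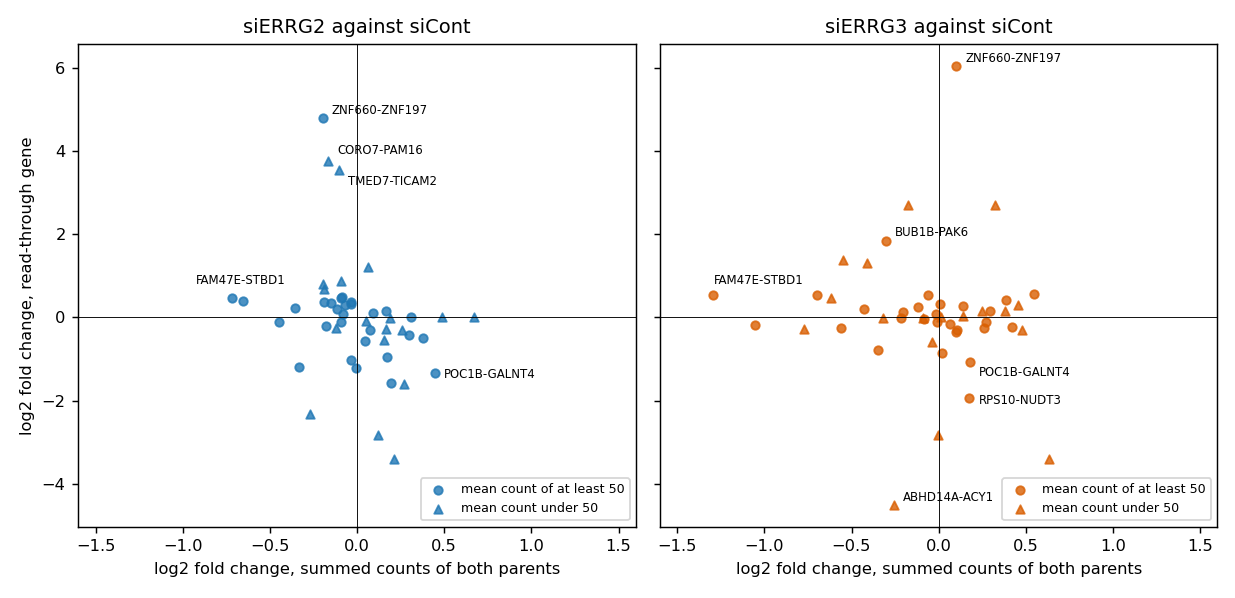
Log2 fold change of each kept read-through gene (vertical) against that of the summed counts of its parents (horizontal), 1 point per gene, circles for a mean of at least 50 counts and triangles for fewer. Most points spread further vertically than horizontally; the heights of genes at 0 counts in a library, such as ZNF660-ZNF197, depend on the prior count of 2 and are not estimates of a fold.

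The share of the locus, which needs no scaling between libraries, had an interval below that of siCont in 12 loci and above it in 9 in siERRG2, with 34 overlapping. In siERRG3 it was below in 10, above in 11 and overlapping in 34. Thus in most loci the interval of the share overlapped that of siCont, and the remainder fell on both sides in similar numbers. Separate intervals can overlap where the shares themselves differ beyond counting error, so overlap does not show equal shares. An interval for the difference between shares was not computed.

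The number of windows of its own that a read-through gene has bears on how well it can be counted. Among kept members with windows, the 20 with at most 182 windows in no other gene had a median absolute log2 fold change of 0.53 in siERRG2 and 0.33 in siERRG3. In the 19 with more windows the values were 0.38 and 0.29. The former also had the lower counts, with a median of 72.8 against 95.3. The part of the windows and of the counts in this was not tested.

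Of 33 genes of cleavage, polyadenylation and termination, the steps that end a transcript, 2 were lower and 1 was higher in siERRG2 (19.2% and 16.4% of all genes). In siERRG3, 5 were lower and 2 were higher (25.1% and 23.2% of all genes). The median log2 fold change was 0.03 and 0.00. The list is not separate from the parents: PABPN1, named after its values were seen, is a parent of BCL2L2-PABPN1. It was called lower in siERRG2, with a log2 fold change of -0.37. SYMPK, the scaffold symplekin of the cleavage machinery, had 1356, 929 and 1071 counts, lower in both siRNA libraries with log2 fold changes of -0.56 and -0.36. TTF2, a termination factor, had 2269, 2121 and 1608, and CDK13, a kinase of the polymerase tail, 1588, 1441 and 1342, both called lower in siERRG3 alone. FIP1L1, a subunit of the polyadenylation factor CPSF, had 2234, 2691 and 3220 and CSTF3, of the cleavage stimulation factor, 1406, 1880 and 1685. The subunits named here therefore lay on both sides of siCont.

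Of 18 genes of nonsense-mediated decay and the exon junction complex, the route by which out-of-frame read-through RNA is removed, 0 were lower and 1 was higher in siERRG2, beside the same 19.2% and 16.4% of all genes. In siERRG3, 2 were lower and 8 were higher, beside 25.1% and 23.2%, with a median log2 fold change of 0.23 against 0.01 in siERRG2. PNRC2, an adaptor to decapping, had 4296, 6364 and 6078 counts and was the gene higher in both. SMG5 had 7555, 7735 and 11983 counts, UPF3B 1570, 1641 and 2490, UPF2 1038, 1143 and 1565, and SMG9 901, 929 and 1469. These last 4 stood near siCont in siERRG2 and had log2 fold changes of 0.57 to 0.68 in siERRG3. In the same library 12 read-through genes were lower and 15 higher, as given above.

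The targeted gene and the cell line were checked against the labels. ESRRG had 806, 211 and 230 counts, well below siCont in both siRNA libraries (log2 fold changes -1.94 and -1.82). Of 10 neuroendocrine SCLC markers, 8 were in the table and all 8 had at least 100 counts in every library, while 3 of 10 markers of fibroblasts, endothelial cells and leukocytes did. At a minimum of 10 counts in every library the sets were alike, with 8 neuroendocrine markers and 8 of the 10 others. The summed level of the neuroendocrine markers was 2336, 2005 and 2513 CPM. That of the 10 others was 195.8, 248.6 and 171.1 CPM, which runs in the opposite order of libraries.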

How the data were processed

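H128 cells were transfected with control or ESRRG siRNA for 48 h. According to the methods, BWA and Bowtie 2 placed single MGISEQ2000 reads of 50 bases on GRCh37/hg19. The labels of the series give paired-end reads instead. The submitters' processing notes name TopHat2, HTSeq, DESeq2 and other builds, the coordinates of the table are those of GRCh38, and the counting program is not given in the sources used here. The authors deposited 1 table with estimated counts (expected counts, not normalized) and an expression value taken here as FPKM, whose unit the header does not name. Deposited log2 ratios, p-values and FDR of the authors' own comparisons were not used.

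Estimated counts were rounded. They summed to 19861937, 19900580 and 20016780. TMM factors were 0.994, 1.003 and 1.003 (edgeR 4.0.16, R 4.3.3), over all genes. The filter asked for 10 counts in any library. Fold changes are differences of log2 CPM (prior count 2), called at 1.2-fold. Ratios and shares carry 95% Clopper-Pearson intervals (SciPy 1.17.1) for counting error only. A count of 0 was set to 3 for lower bounds. With 1 library per condition no test was run. Joins and windows of 50 bases came from GENCODE on GRCh37, and start windows from RefSeq. The strand given in the table was not used. The computations were tested on simulated data.

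Named read-through genes were RPS10-NUDT3 and ZNF660-ZNF197, the 10 with the highest mean FPKM, the 5 that were lowest and the 5 that were highest relative to siCont in both siRNA libraries by the smaller change, among genes that reached 30 counts in any library, those with 3 counts or fewer in 1 library and 30 or more in another, the 5 that differed most between siERRG2 and siERRG3 under the same minimum of 30 counts, and the 3 with the highest locus share in siCont. Of each further list, at most 5 genes with the largest mean change were named. The members and lists were chosen with earlier results of these data known.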

Additional observations from a re-analysis of the deposited data

How the results depend on the processing

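Scaling by total CPM or by DESeq2 size factors, the FPKM values with a pseudocount of 0.1, and a prior count of 0.5 left each count of read-through genes called within 1.5 times its value, and no named gene changed direction. With a mean of at least 50 counts required, 10 were lower and 10 higher in siERRG2, 6 lower and 9 higher in siERRG3, and 4 lower in both. At a 1.5-fold change, 10 were lower and 7 higher in siERRG2, 6 were higher in siERRG3, and 2 were higher in both. At 2-fold, 9 were lower and 4 higher in siERRG2, 5 lower and 6 higher in siERRG3, 4 lower in both and 1 higher in both. These counts are smaller because fewer genes or a larger fold were admitted. With at least 500 counts required per locus, the median share in siERRG3 was 2.97% in place of 4.24%. On FPKM the difference of RBM14-RBM4 in siERRG3 was 0.22 on the log2 scale, under the 1.2-fold call, as was that of TMED7-TICAM2 in siERRG3, at -0.14 from 1 count against 0. With a prior count of 0.5, C8orf44-SGK3 passed the call in siERRG2, at -0.29.

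No paired analysis was possible because each condition had 1 library, and for the same reason no library was left out. Depth limits the low genes most: at 59 counts in siCont, the ratio interval of PRH1-TAS2R14 ran from 0.437 to 1.02. The division of reads among overlapping genes adds uncertainty that no interval here covers.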
